A study of Homo sapiens with 4 samples.

Results

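The EGF receptor family and its ligands were followed at the RNA level in Ca9-22 cells, an established human line of gingival squamous cell carcinoma, with and without knockdown of KPNA4. KPNA4 encodes an importin alpha, an adaptor that carries cargo proteins with a nuclear localization signal into the nucleus. The members were named by symbol: the receptors EGFR, ERBB2 and ERBB3, the ligands AREG, EREG, BTC, HBEGF, TGFA and EPGN, and the receptor inhibitor ERRFI1. They were 10 of the 27708 genes or transcripts with a probe on the arrays, and the rule that names them uses no threshold on a measured value. The study set 2 cultures of Ca9-22 cells given a negative control (labelled CTLi) beside 2 in which KPNA4 was knocked down (labelled KPNA4i), with RNA from each culture on its own 1-color Agilent array. The sample descriptions place the RNA at 3 days after transfection of siRNA, and all 4 cultures shared the growth medium. The design text calls the cultures biological replicates. With 2 cultures per group of a single line, p-values measured the spread between these 4 cultures, and a difference between the cultures other than the knockdown cannot be told apart from it.

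EGFR, ERBB2 and ERBB3 are receptor tyrosine kinases that signal as dimers through the Ras-ERK and PI3K-AKT pathways. Their ligands are made as membrane-anchored precursors and released from the cell surface by ADAM proteases, so that epithelial tumor cells often stimulate their own receptors. EGFR is frequently abundant in squamous cell carcinoma of the head and neck, and in keratinocytes several of its ligands are themselves induced by EGFR signaling.

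KPNA4 itself checked the labels. Its log2 signal relative to the 75th percentile of the array, the scale used for every level given here, was 4.02 and 4.03 in the control cultures and 2.36 and 2.05 in the knockdown cultures, a difference of -1.82 (SE 0.12, limma adjusted p = 0.00183). Between 70.2% and 71.0% of 34127 probes were well above background on each array, no probe was saturated, and the 75th percentile lay between 1381 and 2096 units of processed signal. Replicate arrays correlated at 0.998 within each group and at 0.979 between groups at the most. The 11 squamous carcinoma cell markers were well above background on all 4 arrays. Their summed signal was 303.0 to 303.7 times the 75th percentile in control and 244 to 254 times in knockdown cultures. At a limma adjusted p under 0.05, 6 of the 11 were higher and 4 lower, beside 20.3% and 29.5% of all genes tested. The sum over 7 fibroblast markers was 0.145 to 0.150 in control and 0.333 to 0.352 in knockdown cultures. COL3A1 and THY1 were not well above background on any array, and of the 5 tested 3 were higher and 1 lower. The sum over 5 endothelial markers was 0.0928 to 0.0996 in control and 0.0668 to 0.0705 in knockdown cultures. KDR, PECAM1 and TIE1 were not well above background on any array, and of the 2 tested 0 were higher and 2 lower. The part of these marker shifts in the results on the EGF receptor family was not tested.

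The receptor and ligand RNAs moved in both directions. EREG rose 5.05-fold after KPNA4 knockdown, ERBB3 rose 1.93-fold, BTC rose 1.71-fold, ERBB2 rose 1.33-fold and ERRFI1 rose 1.22-fold, whereas HBEGF fell 2.56-fold. For EGFR, AREG and TGFA the brightest probe did not pass the threshold, an adjusted p of 0.05 from limma over all genes. EPGN was not well above background on any array and was not tested. Thus 5 of 9 tested members were higher, beside 20.3% of the 19550 genes tested, and 1 of 9 was lower, beside 29.5% of the genes. Without scaling the arrays, these counts were 8 and 1 of 9, beside 11257 genes higher and 1047 lower, and with the normexp background correction no gene was called. The median log2 fold change was 0.29 over the 9 tested members and -0.10 over all genes. All 9 were well above background on all 4 arrays at their brightest probe, so none was admitted by a single group. In this bulk RNA, fewer cells of a type and less RNA per cell cannot be told apart.

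**Figure D1:**
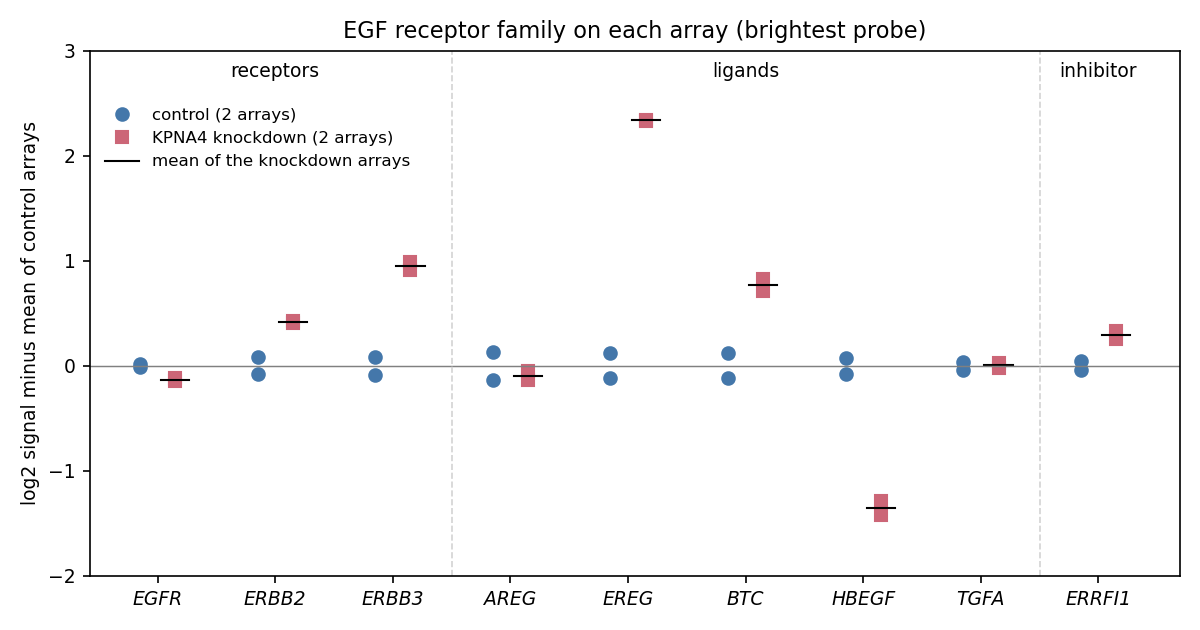
Each tested member at its brightest probe, with the log2 signal of each array minus the mean of the 2 control arrays on the vertical axis (circles, control; squares, KPNA4 knockdown; black line, mean of the 2 knockdown arrays). The knockdown arrays lie 2.34 above control for EREG and 1.36 below it for HBEGF, while those of AREG and TGFA overlap the control arrays.

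EGFR, the receptor for all 6 ligands, was represented by 3 probes. The probe for the full-length transcript (NM_005228) had log2 levels of 1.63 and 1.60 in control cultures and 1.50 and 1.47 in knockdown cultures. The groups did not overlap, but the difference of -0.13 (SE 0.06, 95% interval -0.29 to 0.02) did not pass the threshold (limma adjusted p = 0.120). Quantile normalization and median scaling gave -0.0892 and -0.16. Leaving out the scaling adds the same amount to every gene, and EGFR was then at 0.37 (adjusted p = 0.0205), below the median of 0.40 over all genes. Another probe is named for NM_201283, a shorter transcript whose product ends before the kinase domain. Its levels were -1.57 and -1.72 in control and -2.97 and -3.12 in knockdown cultures, a fall by 1.40 (SE 0.09, adjusted p = 0.00173 over all probes). Both knockdown cultures lay below both controls, and the signal of this probe was 2.65-fold lower. The probe for NM_201282, also a shorter transcript, read -3.88 and -3.95 in control and -3.91 and -3.98 in knockdown cultures, with a difference of -0.02 (adjusted p = 0.782). The EGFR probes therefore did not share 1 response, and taking the mean over them gave -0.52 (adjusted p = 0.00770). The position of each probe in its transcript was not used here, so it is not known which of them also read the full-length transcript.

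ERBB2, the family member without a known ligand of its own and the preferred dimerization partner of the others, had 1 probe (NM_001005862). Its log2 levels were 1.48 and 1.32 in control cultures and 1.80 and 1.82 in knockdown cultures. Both knockdown cultures were above both controls, and the rise was 0.41 (SE 0.08, 95% interval 0.20 to 0.63, limma adjusted p = 0.0182). The call was lost when either knockdown array was left out, with adjusted p = 0.0792 without knockdown 1 and 0.0931 without knockdown 2 and a difference of 0.33 to 0.49 over the 4 omissions.

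ERBB3, which has a weak kinase and recruits PI3K when paired with another receptor, rose further. The brightest of its 3 probes (NM_001982) read -0.67 and -0.50 in control and 0.41 and 0.33 in knockdown cultures. The groups were separated by more than the spread within either of them, with a difference of 0.95 (SE 0.09, limma adjusted p = 0.00343). The probe for NM_001005915, a shorter transcript that encodes a truncated receptor, went the other way: -1.04 and -0.95 in control and -1.22 and -1.28 in knockdown cultures, a fall by 0.26 (SE 0.07, adjusted p = 0.0401), which did not pass with any 1 of the 4 arrays left out (adjusted p = 0.0523 to 0.213). Without scaling it was at 0.24, below the median of 0.40 over all genes. The third probe, also named for NM_001982, was not well above background in control 2 and gave -0.05 (SE 0.22, adjusted p = 0.877). Averaged over the ERBB3 probes the change was 0.22 (adjusted p = 0.0611), so the rise of ERBB3 rests on the brightest probe.

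Of the 6 ligands, EREG and BTC rose, HBEGF fell, and AREG and TGFA did not pass at their brightest probe. EREG (epiregulin), a ligand of EGFR and ERBB4, was dim in control cultures. Its log2 levels (NM_001432) were -4.12 and -4.36 in control and -1.89 and -1.91 in knockdown cultures, which is 84.3 and 67.5 units of processed signal against 521 and 559. The 2 knockdown cultures lay within 0.02 of each other and far above both controls. The rise was 2.34 (SE 0.10, 95% interval 2.06 to 2.61, limma adjusted p = 8.36e-04), and 260 of the 19550 genes tested, or 1.33%, rose more.

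AREG (amphiregulin), a ligand of EGFR, is encoded beside EREG on chromosome 4. Its brightest probe (NM_001657) read 5.05 and 4.78 in control and 4.78 and 4.86 in knockdown cultures. The groups overlapped, with a difference of -0.09 (SE 0.11, 95% interval -0.41 to 0.22, limma adjusted p = 0.517). The other AREG probe read 3.41 and 3.16 in control and 3.15 and 3.35 in knockdown cultures, a difference of -0.04 (adjusted p = 0.834). The sign at the brightest probe depended on the setting and on single arrays: 0.07 after quantile normalization and between -0.23 and 0.04 with 1 array left out. Without scaling it was at 0.41, beside the median of 0.40 over all genes.

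The start sites of these neighbors differ in sequence, and both promoters are shown because the genes lie side by side yet gave different values. The windows come from RefSeq on GRCh38.p14 and run from 250 bases before to 50 bases after the annotated start, on the + strand at chr4:74364895-74365194 for EREG and chr4:74444886-74445185 for AREG. Capitals mark TATAAA, the core of the TATA box that positions RNA polymerase II, and TGACGTCA, the cAMP response element that binds CREB and ATF proteins.
EREG: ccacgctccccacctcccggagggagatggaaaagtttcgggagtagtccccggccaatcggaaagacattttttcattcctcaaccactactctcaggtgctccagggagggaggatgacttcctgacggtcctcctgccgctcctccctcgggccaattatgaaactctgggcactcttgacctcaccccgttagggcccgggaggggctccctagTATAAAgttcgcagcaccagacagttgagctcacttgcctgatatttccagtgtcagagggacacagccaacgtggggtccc
AREG: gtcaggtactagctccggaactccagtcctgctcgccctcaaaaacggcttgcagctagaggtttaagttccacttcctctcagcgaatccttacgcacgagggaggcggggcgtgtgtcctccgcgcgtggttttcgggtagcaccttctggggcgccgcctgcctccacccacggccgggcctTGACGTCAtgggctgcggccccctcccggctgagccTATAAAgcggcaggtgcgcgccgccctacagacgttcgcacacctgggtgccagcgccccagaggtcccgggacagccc
TATAAA began 32 bases before the start of EREG and 29 bases before that of AREG. On either strand, TATAAA was present in 4 of 11 promoters listed for 9 members, those of EPGN, EREG and AREG and 1 of EGFR, and in 11.5% of all 35116 promoters. TGACGTCA was present in AREG alone among the members and in 1.85% of all promoters. The AP-1 motif, searched as TGACTCA or TGAGTCA on both strands, was found in an EGFR promoter only and in 4.95% of all promoters. The GC box GGGCGG was present in 6 of the 11, including AREG, BTC, HBEGF and TGFA but not EREG, and in 45.0% of all promoters. These matches are descriptions of the sequence windows, and binding was not measured.

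BTC (betacellulin), a ligand of EGFR and ERBB4 encoded on the far side of AREG, was also dim. Its probe (NM_001729) read -3.77 and -4.00 in control and -3.06 and -3.18 in knockdown cultures. Both knockdown cultures exceeded both controls, and the rise was 0.77 (SE 0.11, 95% interval 0.48 to 1.06, limma adjusted p = 0.00859). Under the normexp background correction without spots in bright surroundings the rise was 0.43.

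HBEGF (heparin-binding EGF-like growth factor), a ligand of EGFR and ERBB4 and the receptor for diphtheria toxin, was the member that fell. Its probe (NM_001945) read -0.80 and -0.65 in control and -2.15 and -2.02 in knockdown cultures. The groups were well separated, with a fall by 1.36 (SE 0.09, 95% interval -1.60 to -1.11, limma adjusted p = 0.00184). Of the 19550 genes tested, 311 or 1.59% fell more. Without knockdown 1, without knockdown 2 and without either control in turn, the value stayed between -1.43 and -1.28.

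TGFA (transforming growth factor alpha), a ligand of EGFR, gave different values at its probes, both named for NM_003236. The brightest read -0.46 and -0.39 in control and -0.45 and -0.40 in knockdown cultures. The groups overlapped, with a difference of 0.00 (SE 0.06, 95% interval -0.17 to 0.18, limma adjusted p = 0.964). The dimmer probe read -2.26 and -2.32 in control and -3.24 and -3.10 in knockdown cultures, a fall by 0.88 (SE 0.08, adjusted p = 0.00314) or 1.85-fold. The mean over both gave -0.44 (adjusted p = 0.00958), so the value for TGFA depended on the probe. Without scaling, the brightest probe was at 0.51 (adjusted p = 0.00501), beside the median of 0.40 over all genes.

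EPGN (epigen), the remaining ligand, was not well above background on any array (NM_001013442), with 1.76 and 1.75 units of processed signal in control and 7.43 and 6.53 units in knockdown cultures. No fold change is given for it.

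ERRFI1 (MIG6), which binds the EGFR kinase and inhibits it and is itself induced by EGFR signaling, read 1.99 and 1.91 in control and 2.20 and 2.28 in knockdown cultures (NM_018948). Both knockdown cultures were above both controls by a small margin, 0.29 (SE 0.07, 95% interval 0.10 to 0.48, limma adjusted p = 0.0303). The call was lost with median scaling (adjusted p = 0.0515), with no filter on dim probes (adjusted p = 0.0670), and without control 2 (adjusted p = 0.0793), knockdown 1 (adjusted p = 0.0982) or knockdown 2 (adjusted p = 0.169). With either knockdown array left out, fewer members were called higher, and fewer of all genes were called in each direction.

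**Figure D2:**
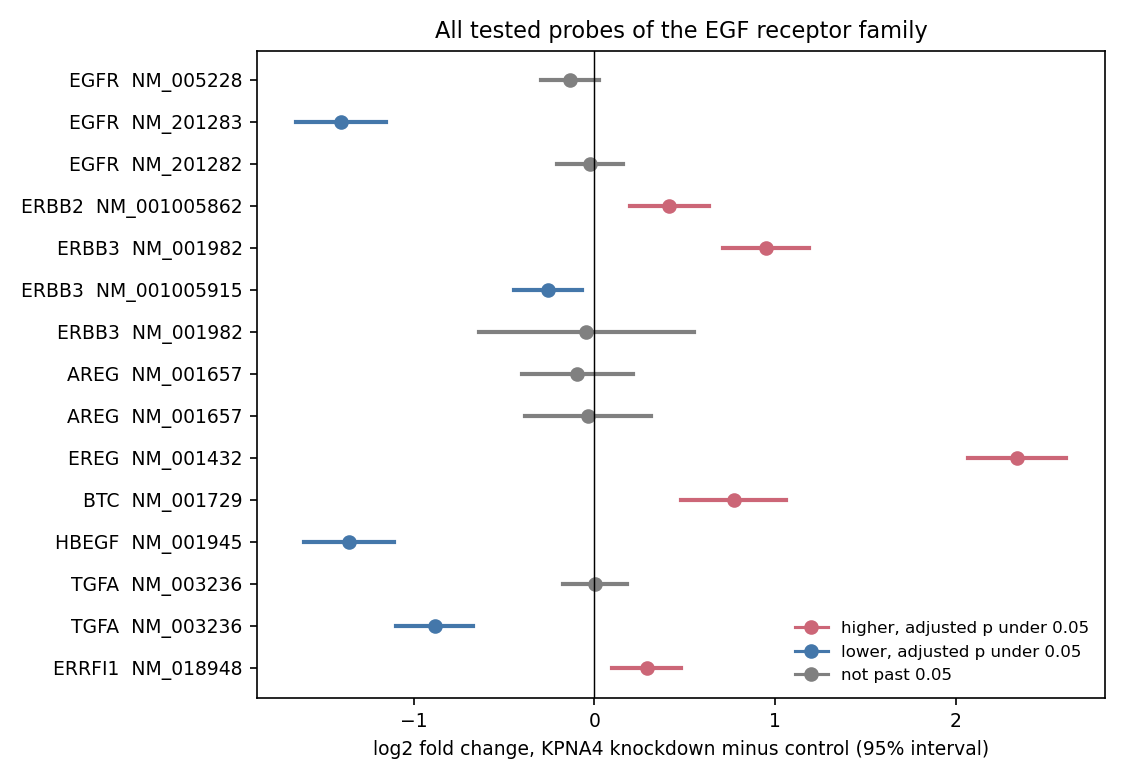
Log2 fold change with its 95% interval for each of the 15 tested member probes, knockdown minus control, colored by call. The probes of EGFR, ERBB3 and TGFA spread apart within the gene, from -1.40 to -0.02 for EGFR, whereas both AREG probes lie near 0.

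Over the 16 probes of the 10 members, 15 were tested and 9 were called in either direction, beside 48.4% of the 24198 probes tested. There were 4 members with more than 1 probe, namely EGFR, ERBB3, AREG and TGFA, and in 3 of them the probes differed in call. For HBEGF, EREG, BTC, ERBB2 and ERRFI1 a single probe carried the value.

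**Figure D3:**
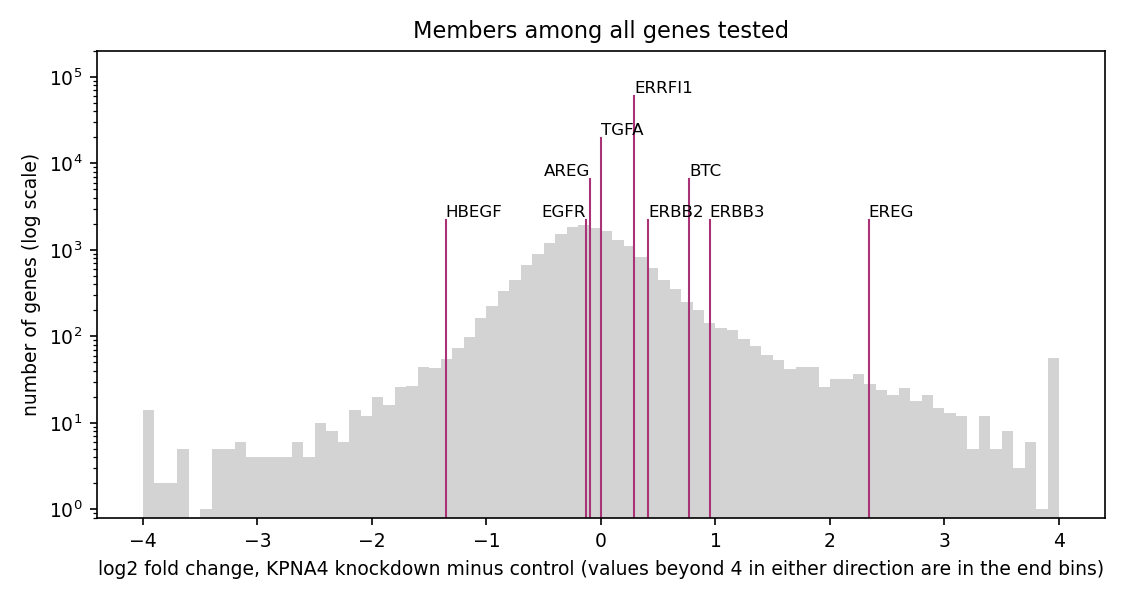
Distribution of the log2 fold change over the 19550 genes tested (logarithmic vertical axis, number of genes per bin), with the 9 tested members marked by lines whose height carries no value. EREG lies in the upper tail, where 1.33% of genes rose more, HBEGF lies in the lower tail, where 1.59% fell more, and the other members lie between them.

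The rest of the family outside the 10 members comprises ERBB4, EGF and the neuregulins, 6 genes of which 3 were tested. NRG4, a neuregulin that binds ERBB4, rose from -4.24 and -4.25 to -2.11 and -2.16, by 2.11 (SE 0.06, limma adjusted p = 4.26e-04). NRG1, the principal ligand of ERBB3 and ERBB4, fell from 3.67 and 3.54 to 2.07 and 2.10, by 1.52 (SE 0.07, adjusted p = 9.96e-04), and its second probe fell by 1.43. ERBB4 itself was well above background in control cultures, at -4.90 and -5.33, and not in knockdown cultures, at -7.52 and -8.54. It thus entered the test through the control cultures alone, and was at least 5.77-fold lower in knockdown cultures. This bound holds for the reported processing, since the fitted value was -0.99 under normexp without spots in bright surroundings and 0.73 under normexp. For this bound, each knockdown array contributed its dimmest signal that still counted as well above background, or that of the probe itself where higher. EGF, NRG2 and NRG3 were too dim in both groups to be tested. Thus, of the 3 genes tested in this list, 1 was higher and 2 were lower, ERBB4 among them. Over all genes tested, 20.3% were higher and 29.5% lower. When probes had to be well above background on all 4 arrays, 1 was lower.

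EREG, AREG, BTC and EPGN lie in 1 stretch of chromosome 4, between the genes of several CXC chemokines and PARM1. Of a list of 18 genes near the ligands 11 were tested, and 1 was higher and 6 were lower (20.3% and 29.5% of all genes). Their median log2 fold change was -0.38 beside -0.10 over all genes. The list is not the set of genes plotted, since it also holds AFP, ALB and CXCL9, which were not tested. Most chemokines on one side of the ligands fell, with log2 differences of -1.41 for CXCL8 (SE 0.09, limma adjusted p = 0.00175), -1.30 for CXCL3, -0.88 for CXCL6, -0.78 for CXCL2 and -0.73 for CXCL1. Without scaling, the falls of CXCL2 and CXCL1 did not pass (adjusted p = 0.0765 and 0.119). These 5 genes encode neutrophil-attracting chemokines that signal through CXCR2. CXCL5, in the same run of genes, was at 0.26 and did not pass (limma adjusted p = 0.137). PF4, PF4V1 and PPBP, also in this run, were not well above background in either group. MTHFD2L, a mitochondrial folate enzyme encoded next to EPGN, rose by 0.35 (SE 0.07, adjusted p = 0.0233), but not without knockdown 1 (adjusted p = 0.100) or knockdown 2 (adjusted p = 0.115), and it was at 0.02 under normexp without spots in bright surroundings. PARM1, which follows BTC, was at -0.38 (SE 0.11, adjusted p = 0.0441), a difference of dim signals that did not pass with any 1 array left out (adjusted p = 0.0538 to 0.167) and was at 0.12 without scaling, below the median of 0.40 over all genes. ODAPH, the last gene of the stretch that was plotted, stood outside the list of 18 and was picked out after its value was seen, at -1.51 (adjusted p = 0.00127). Without scaling, 5 neighbors were higher and 3 lower, beside 11257 and 1047 of all genes. With the scaling used throughout, the called list genes on the chemokine side of EREG had fallen, apart from MTHFD2L. Past BTC, only PARM1 of the list passed, while RCHY1 at 0.11 and THAP6 at 0.09 did not.

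**Figure D4:**
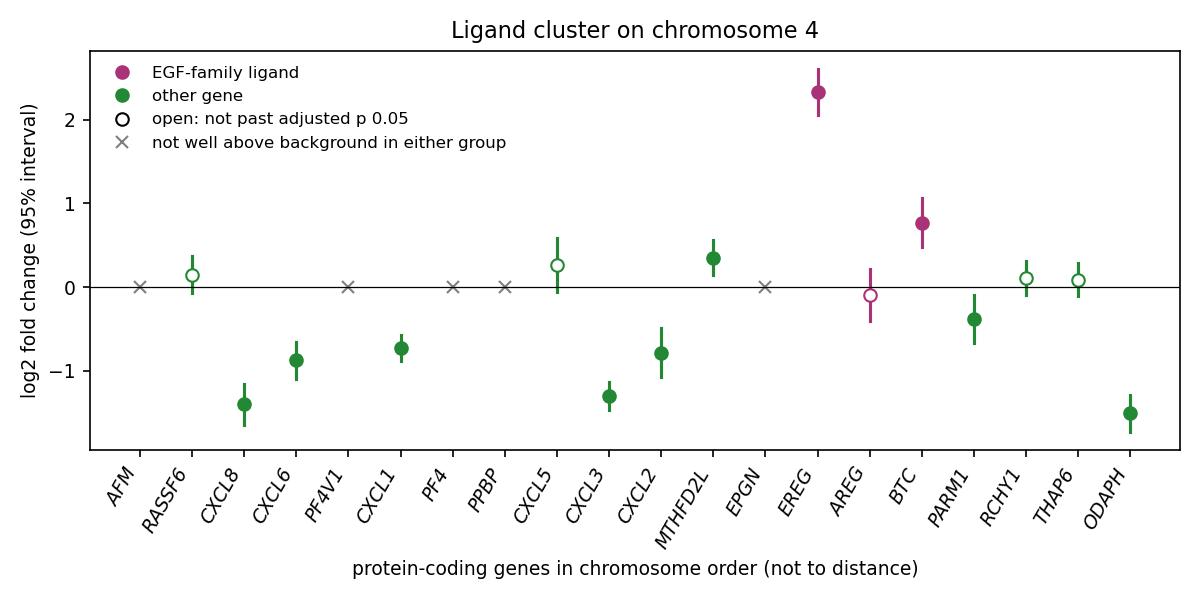
Log2 fold change with its 95% interval for genes of the ligand cluster in chromosome order, not to distance (purple, EGF-family ligands; green, other genes; open symbols, not past the threshold). Crosses drawn at 0 stand for genes not well above background in either group and carry no value; EREG at 2.34 stands apart from CXCL8, CXCL3, CXCL6, CXCL2 and CXCL1, which lie between -1.41 and -0.73.

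Genes of ligand shedding and trafficking were all measured, 18 of 18, with 8 higher, 5 lower and a median of 0.05. Over all genes, 20.3% were higher and 29.5% lower. The list mixes functions, and the inhibitor TIMP3 is among the 8 higher, so the counts do not measure ligand release. ADAM8, a membrane protease, fell by 1.78 (SE 0.07, limma adjusted p = 6.93e-04), from 1.17 and 1.08 to -0.68 and -0.62. TIMP3, an inhibitor of ADAM17 and ADAM10, rose by 1.35 (SE 0.06, adjusted p = 9.67e-04), from 0.09 and 0.13 to 1.42 and 1.49. ADAM19 was not well above background in control cultures, at 1.73 and 6.08 units of processed signal, and entered the test through the knockdown cultures alone. It was at least 3.40-fold higher in knockdown cultures. This bound holds for the reported processing, since the fitted value was 0.24 under normexp without spots in bright surroundings. The call of ADAM19 rested on these dim control signals and was lost without knockdown 1 or knockdown 2. ADAM19 is among the 8 higher, and 7 were higher when the background filter was applied to every array. With control 1 or either knockdown array left out, fewer genes of the list were called higher, as over all genes. With either knockdown array left out, fewer were also called lower, again as over all genes. Without scaling, 13 were higher and 1 was lower, beside 11257 and 1047 of all genes.

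Genes of receptor adaptors and effectors gave 8 higher and 9 lower of 34 tested, with a median of -0.03. Both shares lay near the 20.3% and 29.5% over all genes. VAV3, a guanine nucleotide exchange factor, rose by 3.36 (SE 0.06, limma adjusted p = 2.99e-04), from -2.39 and -2.31 to 1.02 and 1.00. GAB2, a docking protein that recruits PI3K and SHP2, fell by 1.51 (SE 0.06, adjusted p = 6.96e-04), and PIK3CB, a catalytic subunit of PI3K, fell by 0.78 (SE 0.07, adjusted p = 0.00358). With either knockdown array left out, fewer genes of the list were called in each direction, as over all genes. Without scaling, 23 were higher and 1 was lower, beside 11257 and 1047 of all genes, and PIK3CB no longer passed (adjusted p = 0.0816). Under normexp without spots in bright surroundings 7 were higher and 16 lower, beside 3739 and 9119 of all genes.

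Genes of receptor turnover and inhibition gave 9 higher and 10 lower of 30 tested, beside 20.3% and 29.5% over all genes, with a median of -0.03. SOCS3, an inhibitor of cytokine and receptor signaling, fell by 2.11 (SE 0.11, limma adjusted p = 0.00130), from -1.26 and -0.98 to -3.22 and -3.24. LRIG1, a membrane protein that promotes degradation of ErbB receptors, rose by 1.72 (SE 0.07, adjusted p = 8.33e-04), from -3.75 and -3.88 to -2.11 and -2.07. UBASH3B, which dampens CBL-driven receptor degradation, fell by 1.36 (SE 0.06, adjusted p = 8.27e-04). With control 1 or either knockdown array left out, fewer genes of the list were called in each direction, as over all genes. Without scaling, 18 were higher and 3 lower, beside 11257 and 1047 of all genes.

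Early genes that EGF induces in many epithelial cells gave 6 higher and 12 lower of 30 tested, beside 20.3% and 29.5% over all genes, with a median of 0.10 beside -0.10 over all genes; the median lay above 0 although more of the called genes were lower. TNFAIP3, an inhibitor of NF-kappaB signaling, fell by 2.07 (SE 0.06, limma adjusted p = 4.87e-04), from 0.34 and 0.35 to -1.68 and -1.77. FOSL1, a subunit of AP-1, fell by 1.36 (SE 0.10, adjusted p = 0.00228). EGR3, a zinc-finger factor, was not well above background in control cultures and entered the test through the knockdown cultures alone. It was at least 4.11-fold higher in knockdown cultures. This bound holds for the reported processing, since the fitted value was 0.35 under normexp without spots in bright surroundings. EGR3 is among the 6 higher, and 5 were higher when probes had to be well above background on all 4 arrays. Fewer genes of the list were called in each direction with either knockdown array left out, as over all genes. Without scaling, 17 were higher and 5 lower, beside 11257 and 1047 of all genes. Several of these genes also respond to other signals, so the list does not measure receptor activity.

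**Figure D5:**
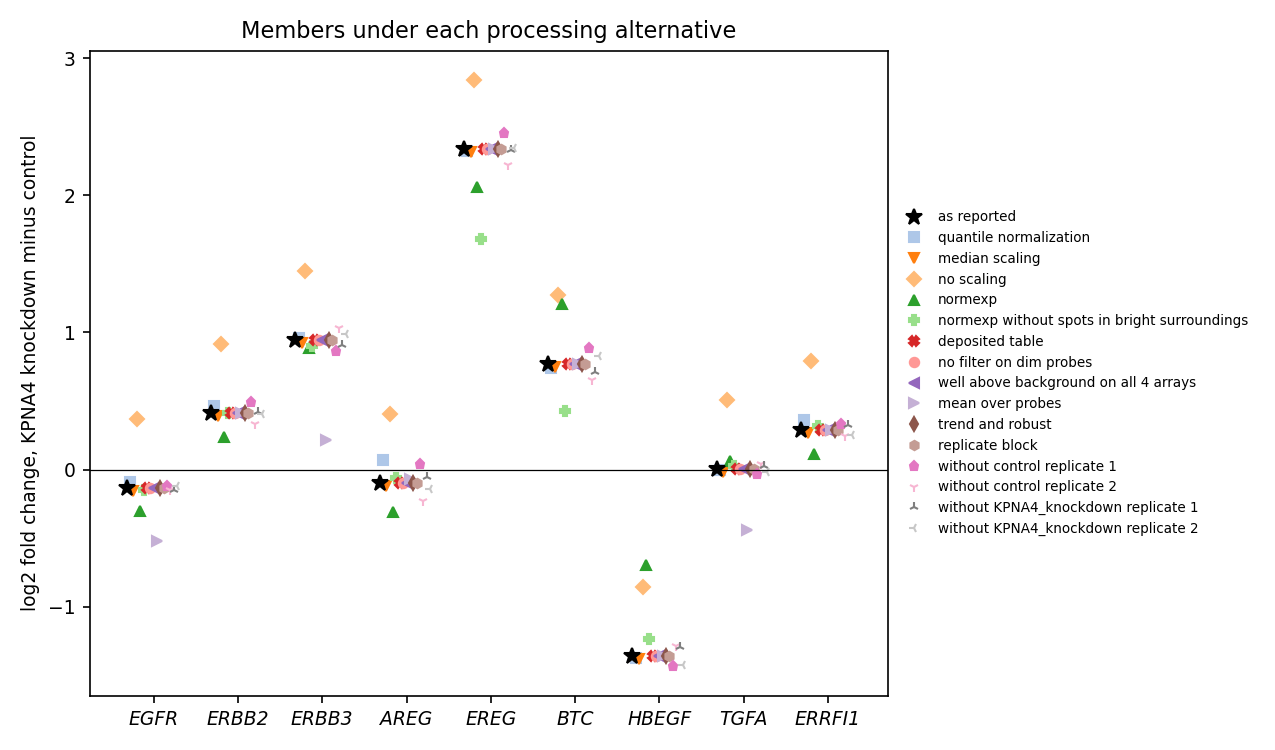
Log2 fold change of each tested member as reported and under each of the 15 processing alternatives (vertical axis, knockdown minus control). EREG, BTC, ERBB3, ERBB2 and ERRFI1 stay above 0 and HBEGF stays below 0 in all of them, while EGFR, AREG and TGFA are found on both sides of 0.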

How the data were processed

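RNA of 4 Ca9-22 cultures, 2 control and 2 KPNA4 knockdown, was labeled with Cy3 and hybridized to Agilent 1-color arrays on 1 slide. The deposited values are scanner intensity per spot, read by the authors with Agilent Feature Extraction 11.0.1.1. A deposited series table, used as an alternative, holds for part of the probes the ratio of processed signal to the 75th percentile of its array. The study text also describes shRNA for KPNA4, whereas the sample descriptions name siRNA.

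Here, outlier spots were dropped, replicate spots averaged and log2 signals expressed relative to the 75th percentile of their array. A probe had to be well above background on 2 arrays of one group to enter limma 3.58.1 (R 4.3.3, lmFit and eBayes). P-values were adjusted by Benjamini-Hochberg and called under 0.05. The brightest probe stood for a gene. The fit was tested on simulated data. Probes were named through RefSeq accessions (25770 of 34127 matched); the RefSeq table is on GRCh38.p14 and gave names, neighbors and promoters only.

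The members and lists were chosen with earlier results of these data known. All members and their probes and KPNA4 are named, with 22 further genes: up to 3 called genes with the largest change per list, and the called genes of the list of ligand-gene neighbors. Alternatives changed the scaling, background correction, source table, filter, probe summary, variance model and replicate block, and left out each array. No columns of another series were found. The number of arrays limits the precision. The leukocyte marker list is not reported here.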

Additional observations from a re-analysis of the deposited data

How the results depend on the processing

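EREG, BTC and HBEGF kept their direction and stayed past the threshold in 14 of 15 alternatives, the exception being the normexp background correction (offset 50), which ended every call. Under it KPNA4 was at -1.96, ERBB2 at 0.24, ERBB3 at 0.89, EREG at 2.06, BTC at 1.21, HBEGF at -0.70 and ERRFI1 at 0.12, and 0 genes were higher and 0 lower in limma, among members and overall. At an unadjusted p under 0.05 it had 641 genes higher and 524 lower, and 2 members higher and 0 lower. Knockdown 2 held 12 spots with local background over 100, up to 51625, beside at most 59 on the other arrays. Leaving these out, an alternative chosen after seeing the data, gave 3739 genes higher and 9119 lower, 5 members higher and 1 lower, EREG at 1.68, HBEGF at -1.23, ERBB4 at -0.99, ADAM19 at 0.24 and EGR3 at 0.35. Normexp also reversed the second probe of TGFA (0.0671), the NM_201282 probe of EGFR (0.87), the dim NM_001982 probe of ERBB3 (1.24), ERBB4 (0.73), CXCL6 (0.75) and PARM1 (1.26).

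Without scaling, the median of all genes moved from -0.10 to 0.40, the same amount being added to every gene, so that values there are read against this shift. EGFR then stood at 0.37, AREG at 0.41, TGFA at 0.51, the second AREG probe at 0.47, the NM_201282 probe of EGFR at 0.48, the NM_001005915 and dim NM_001982 probes of ERBB3 at 0.24 and 0.46 and PARM1 at 0.12, with 11257 genes higher and 1047 lower and 8 members higher. Quantile normalization reversed AREG (0.0728), its second probe (0.0823), TGFA (-0.00158) and the dim NM_001982 probe of ERBB3 (0.0827), and median scaling gave -0.0192 for TGFA and 0.27 for ERRFI1. The mean over probes gave -0.52 for EGFR, 0.22 for ERBB3 and -0.44 for TGFA, with 3 members lower. Without a filter ERRFI1 was at 0.29 (limma adjusted p = 0.0670).

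Leaving out 1 array in turn gave 0.33 to 0.49 for ERBB2, 0.25 to 0.33 for ERRFI1, -0.23 to 0.0399 for AREG and -0.0330 to 0.0407 for TGFA. Across these omissions 2148 to 3596 genes were higher and 2521 to 4746 lower, the lowest counts coming without a knockdown array, and 3 to 5 members were higher. The second AREG probe ran from -0.16 to 0.0930, the NM_201282 probe of EGFR from -0.0601 to 0.0115 and the dim NM_001982 probe of ERBB3 from -0.26 to 0.17. The cause of these changes was not tested.

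With the replicate number as a block, ERRFI1 at 0.29 no longer passed (limma adjusted p = 0.0730), 3262 genes were higher and 4639 lower, and no other member changed its call at its brightest probe. The NM_001005915 probe of ERBB3 also lost its call (adjusted p = 0.0912), as did PARM1 (adjusted p = 0.0801). The labels share only a number, and deviations of control 1 and knockdown 1 from their group means correlated at -0.03, so the numbers were not taken to pair the cultures. Signal over background limits EPGN, which was too dim to test, and ERBB4, ADAM19 and EGR3, for which only bounds are given.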
